A study of Homo sapiens with 12 samples.

Results

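The genes described here are imprinted genes and imprinted long non-coding RNAs, chosen by name: H19, MEG3, DLK1, PEG3, PEG10, SGCE, GRB10, PLAGL1, MEST and KCNQ1OT1. Of these 10 genes, 9 were found among the 16389 genes counted, and all 9 passed the filter on low counts in every comparison. MEG3 was not analysed here. RNA-seq was performed on HepG2, an established line of transformed human hepatocyte-like cells at passage 9, with 3 libraries in each of 4 groups. LG cells were kept in 5.5 mM glucose and HG cells spent 48 h in 20 mM glucose, while LGV and HGV cells received 1 mM valproic acid (VPA) for another 12 h in the same media. VPA is an inhibitor of histone deacetylases. Poly(A) RNA was sequenced in all groups, and total counts ran from 29798442 to 45572694 per library. The sources do not say if the cells without VPA were collected at the start or the end of those 12 h. Nothing says that replicates came from separate cultures, so p-values measure only the spread between these libraries, which may be technical.

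An imprinted gene is expressed mainly from the copy inherited from 1 parent. Its state is set in the germ line by DNA methylation at an imprinting control region, and after fertilisation that methylation is kept by DNA methyltransferases and by KRAB zinc finger proteins such as ZFP57 and ZNF445, which recruit TRIM28 and SETDB1. Several of these genes regulate fetal growth and insulin or insulin-like growth factor signalling, are abundant in fetal liver and placenta, are reduced in adult liver and return in many hepatic tumours. The counts do not separate the parental copies, so every value is the sum of both, and in bulk samples fewer expressing cells cannot be told apart from less RNA per cell.

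Promoter windows from RefSeq, which reach from 250 bases before to 50 bases after a start site, were available for 4 of the 9 genes. They are shown because the printed windows differ in CG dinucleotides, the sites that DNA methylation uses, and in matches to the motif of ZFP57. Methylation was not measured, and whether these windows lie in an imprinting control region was not examined. For each gene the window with the most CG dinucleotides is printed on GRCh38.p14, from 1 window for H19 and 5 for each of the others, with the letters TGCCGC or GCGGCA, which are this motif on either strand, in capitals.
H19, chr11:2001217-2001516, minus strand: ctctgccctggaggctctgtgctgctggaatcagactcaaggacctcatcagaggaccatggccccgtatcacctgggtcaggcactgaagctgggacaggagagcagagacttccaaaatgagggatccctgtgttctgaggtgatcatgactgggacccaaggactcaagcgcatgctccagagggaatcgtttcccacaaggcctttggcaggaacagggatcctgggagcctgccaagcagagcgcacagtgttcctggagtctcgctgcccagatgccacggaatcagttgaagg
GRB10, chr7:50792825-50793124, minus strand: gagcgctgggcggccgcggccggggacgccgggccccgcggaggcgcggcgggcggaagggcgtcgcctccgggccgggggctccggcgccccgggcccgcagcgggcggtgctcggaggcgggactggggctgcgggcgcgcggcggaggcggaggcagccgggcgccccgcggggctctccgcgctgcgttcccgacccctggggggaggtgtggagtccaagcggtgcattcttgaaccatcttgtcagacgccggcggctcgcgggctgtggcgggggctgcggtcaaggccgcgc
PLAGL1, chr6:144008210-144008509, minus strand: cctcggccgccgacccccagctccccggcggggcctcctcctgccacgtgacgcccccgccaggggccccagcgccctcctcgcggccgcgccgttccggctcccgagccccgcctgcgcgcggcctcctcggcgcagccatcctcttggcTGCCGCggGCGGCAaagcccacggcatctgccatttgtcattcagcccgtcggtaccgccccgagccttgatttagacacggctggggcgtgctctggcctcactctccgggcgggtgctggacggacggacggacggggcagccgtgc
MEST, chr7:130491835-130492134, plus strand: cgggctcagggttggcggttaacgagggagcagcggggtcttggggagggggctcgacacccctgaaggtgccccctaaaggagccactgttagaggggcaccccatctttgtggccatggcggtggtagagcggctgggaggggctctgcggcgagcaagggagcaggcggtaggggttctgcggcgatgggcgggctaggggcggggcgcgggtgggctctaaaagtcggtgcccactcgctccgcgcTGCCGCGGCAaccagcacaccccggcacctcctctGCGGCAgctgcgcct

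The H19 window held 6 CG dinucleotides, against 49 for GRB10, 39 for PLAGL1 and 25 for MEST, and the median over all 35116 RefSeq windows was 14. The windows not printed held 3 to 44 for GRB10, 2 to 31 for PLAGL1 and 13 to 22 for MEST. The printed ones of these genes were chosen as the highest of 5, whereas H19 had 1 window. The comparisons with H19 and with the median are therefore not like for like. The TGCCGC motif occurred 2 times in the PLAGL1 window and 3 times in the MEST window, where a pair of matches overlap, and it was absent from the H19 and GRB10 windows printed. Another GRB10 window, chr7:50793404-50793703 with 44 CG dinucleotides, held it 1 time. Of all windows, 16.7% held this motif. A match of letters is a description of the sequence and not a measured site. The GGGCGG motif of SP1, counted on both strands, stood 3 times in the GRB10 window, 3 times in that of PLAGL1, 2 times in that of MEST and not in that of H19, and 45% of all windows held it. Both motifs contain CG, so choosing windows by CG also bears on how they compare with these shares.

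Measured per kilobase of exon, PEG10 had the highest level of the 9 genes, with a mean of 205 CPM per kb (CPM, reads of a gene scaled to a fixed library total) over the 12 libraries. DLK1 (77.5 CPM per kb) and PEG3 (64.5 CPM per kb) followed. MEST (6.18 CPM per kb) and GRB10 (4.35 CPM per kb) formed a middle tier, below which came SGCE (1.41 CPM per kb), KCNQ1OT1 (0.793 CPM per kb), H19 (0.478 CPM per kb) and PLAGL1 (0.278 CPM per kb). In this order of levels per kb, the ranges over the 12 libraries separated neighbours only between PEG3 and MEST and between GRB10 and SGCE. All other neighbours overlapped. On the CPM scale, PEG10 ranked 71st of the 16389 genes. The order below it differs on that scale, which does not divide by exon length. PEG3 (630 CPM) was above DLK1 (406 CPM), followed by KCNQ1OT1 (73.4 CPM), GRB10 (42.6 CPM), MEST (29.4 CPM), SGCE (29.3 CPM), PLAGL1 (1.78 CPM) and H19 (1.66 CPM).

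All 13 hepatocyte and hepatoblast markers were detected, with a summed level of 44568 to 46234 CPM in LGV against 52893 to 66341 CPM in the other groups. Of the markers of other cell types, 4 of 6 for fibroblasts (COL1A2, COL3A1, DCN, LUM), 2 of 4 for endothelium (PECAM1, KDR), 3 of 5 for blood (PTPRC, CD68, HBB) and 3 of 5 for trophoblast (CGA, PSG1, CSH1) were not among the rows. The 2 markers in the table summed to 18.8 to 58.3 CPM for fibroblast (mostly PDGFRB), 2.21 to 4.85 CPM for endothelium, 909 to 1549 CPM for blood (nearly all LYZ) and 0.729 to 5.35 CPM for trophoblast. The summed fibroblast level was 37.9 to 58.3 CPM in LG, 18.8 to 29.3 CPM in HG, 32.2 to 40.5 CPM in LGV and 26.3 to 32.9 CPM in HGV. CD14, the only blood marker in the table besides LYZ, was at 1.20 to 2.50 CPM in LG and 3.87 to 4.73 CPM in HG. It was at 0.630 to 1.41 CPM in LGV and 2.59 to 3.34 CPM in HGV. The fibroblast sum and CD14 thus separated LG from HG. The sum of CD14 and LYZ did not, at 1068 to 1425 CPM in LG and 1240 to 1392 CPM in HG. The summed trophoblast level was 0.729 to 1.68 CPM without VPA and 2.88 to 5.35 CPM with it. Mitochondrial genes took 5.70 to 6.28% of counts in LG, 7.50 to 7.72% in HG, 6.42 to 7.62% in LGV and 7.95 to 8.91% in HGV. The part of these shifts in the results below was not tested.

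**Figure D1:**
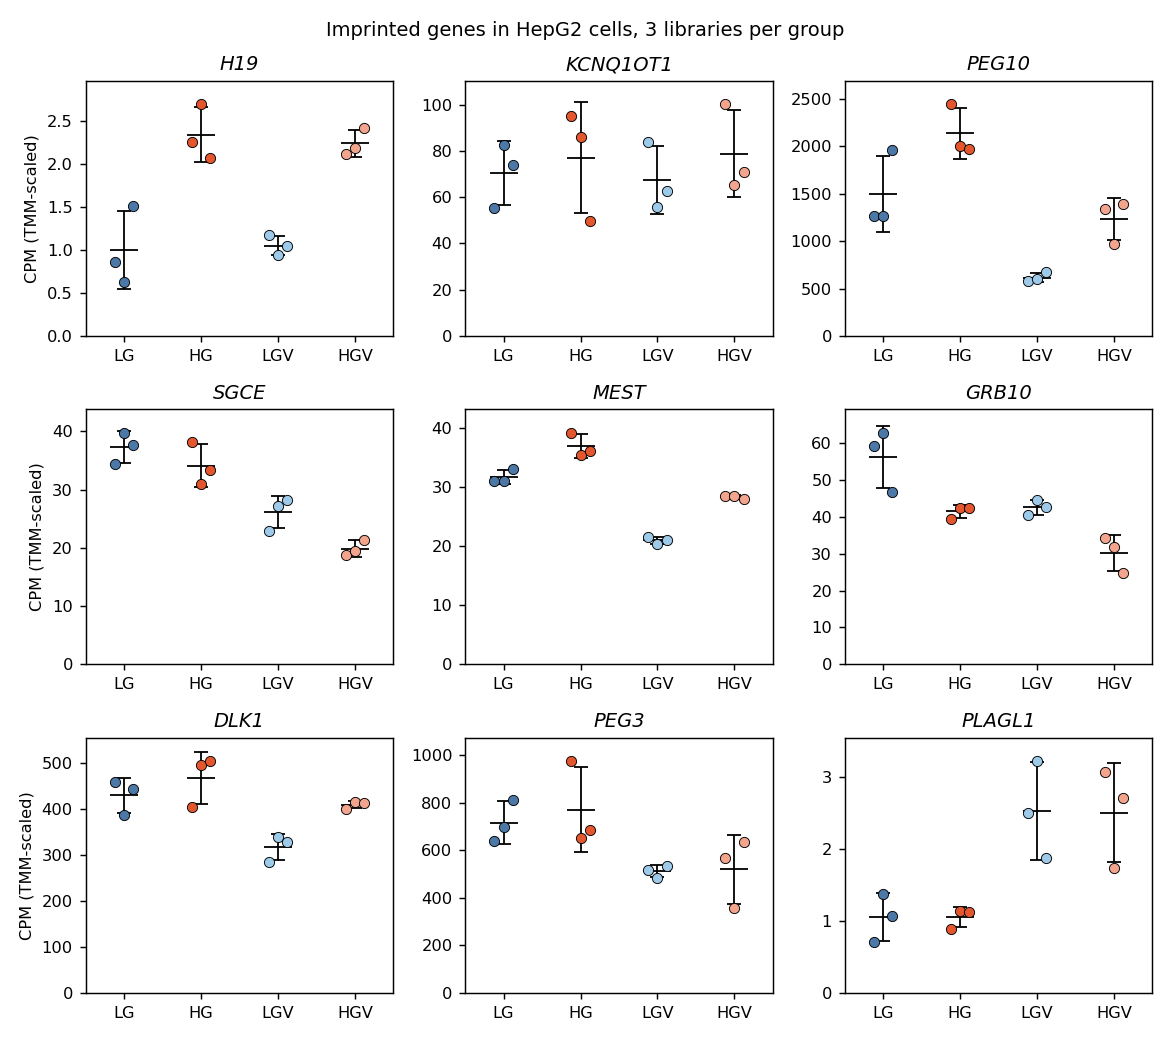
TMM-scaled CPM of the 9 imprinted genes in each of the 12 libraries (points), with the mean and SD of the 3 libraries per group (lines), on axes that start at 0. H19 was higher in both 20 mM groups, and in each medium PLAGL1 was higher and PEG10, MEST and SGCE were lower with VPA.

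With glucose alone (HG against LG), 2 of the 9 genes rose and 1 fell. The background was 24.7% of the 15452 genes tested, 12.0% higher and 12.7% lower, so that the 3 calls are a share near that of all genes. In HGV against HG, 6 of the 9 passed the threshold (1 rose, 5 fell) against a background of 46.1%, and in LGV against LG 7 passed (1 rose, 6 fell) against 41.6%. In HGV against LGV, 6 passed (4 rose, 2 fell) against 40.7%. Beside the 1 member that rose and the 5 or 6 that fell with VPA, 25.8% of genes rose and 20.2% fell in HGV against HG, and 21.7% rose and 19.9% fell in LGV against LG. The groups did not overlap for 4 of the 9 genes in HG against LG (41.2% of all genes), 6 in HGV against HG (54.6%), 7 in LGV against LG (50.5%) and 6 in HGV against LGV (51.4%). The median log2 fold change of the 9 genes was 0.14 for HG against LG, -0.38 for HGV against HG, -0.43 for LGV against LG and 0.21 for HGV against LGV, where the medians of all genes were 0.01, 0.02, -0.01 and 0.01.

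**Figure D2:**
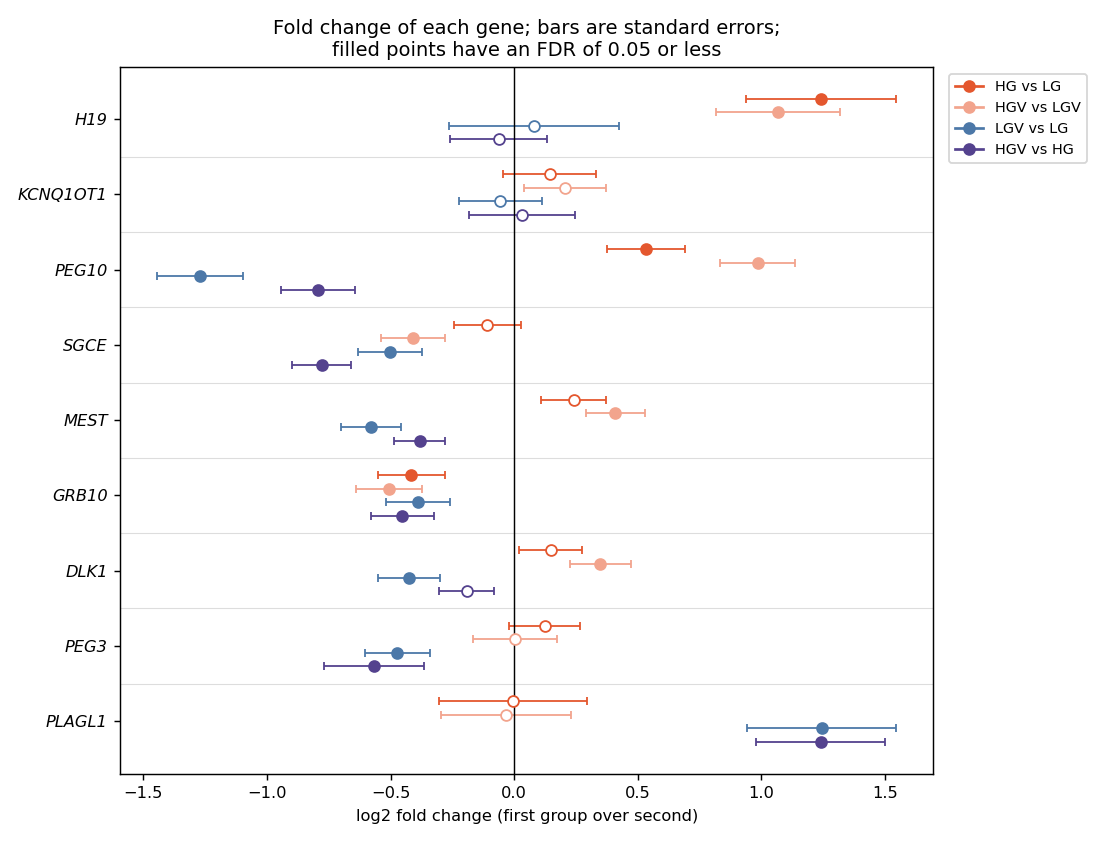
Log2 fold change of each imprinted gene in the 4 pairwise comparisons, with standard errors from the edgeR fit (bars). Filled points have an FDR of 0.05 or less, and with VPA 5 genes have filled points left of 0 in both media while PLAGL1 alone has them right of 0.

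H19 and IGF2 lie side by side on chromosome 11, where they share enhancers and are expressed from opposite parental copies. H19 is a maternally expressed long non-coding RNA (GRCh37 chr11:2016396-2025782, minus strand). It was counted at 0.860, 0.624 and 1.51 CPM in LG, 2.25, 2.69 and 2.07 CPM in HG, 1.17, 0.942 and 1.04 CPM in LGV and 2.12, 2.19 and 2.41 CPM in HGV. Each library of a 20 mM group was above each library of a 5.5 mM group, with or without VPA. H19 rose with glucose by 1.24 on the log2 scale in HG against LG (SE 0.30, edgeR FDR = 0.00627) and by 1.07 in HGV against LGV (SE 0.25, edgeR FDR = 0.00255). Both calls held under every alternative. With VPA its log2 fold change was -0.06 in HGV against HG (SE 0.20, edgeR FDR = 0.817) and 0.08 in LGV against LG (SE 0.34, edgeR FDR = 0.876), and the groups overlapped. These levels rest on 23 to 92 H19 reads per library, which limits their precision, and 3 reads would correspond to 0.0658 to 0.101 CPM.

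IGF2, the paternally expressed fetal insulin-like growth factor of the same domain, was the partner with the highest level, at 691 CPM per kb. It was counted at 4000, 3241 and 3771 CPM in LG, 7495, 8572 and 7388 CPM in HG, 2605, 2798 and 2379 CPM in LGV and 6222, 4581 and 6187 CPM in HGV. The 4 groups did not overlap, with LGV lowest and HG highest. IGF2 rose by 1.12 on the log2 scale in HG against LG (SE 0.13, edgeR FDR = 8.84e-06) and by 1.11 in HGV against LGV (SE 0.17, edgeR FDR = 6.15e-05). With VPA it fell by 0.47 in HGV against HG (SE 0.15, edgeR FDR = 0.0193) and by 0.49 in LGV against LG (SE 0.14, edgeR FDR = 0.0120). The first of these calls was lost with scaling by library size alone (FDR = 0.0795) and without HG replicate 2 (FDR = 0.0882), the second without LG replicate 1 (FDR = 0.0716) and without LGV replicate 3 (FDR = 0.0863).

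The ratio of raw reads within a library does not depend on scaling. There were 2504 to 5195 IGF2 reads per H19 read in LG, 3185 to 3566 in HG, 2227 to 2971 in LGV and 2094 to 2941 in HGV. The LG range spanned that of HG, and both VPA groups lay below HG.

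**Figure D3:**
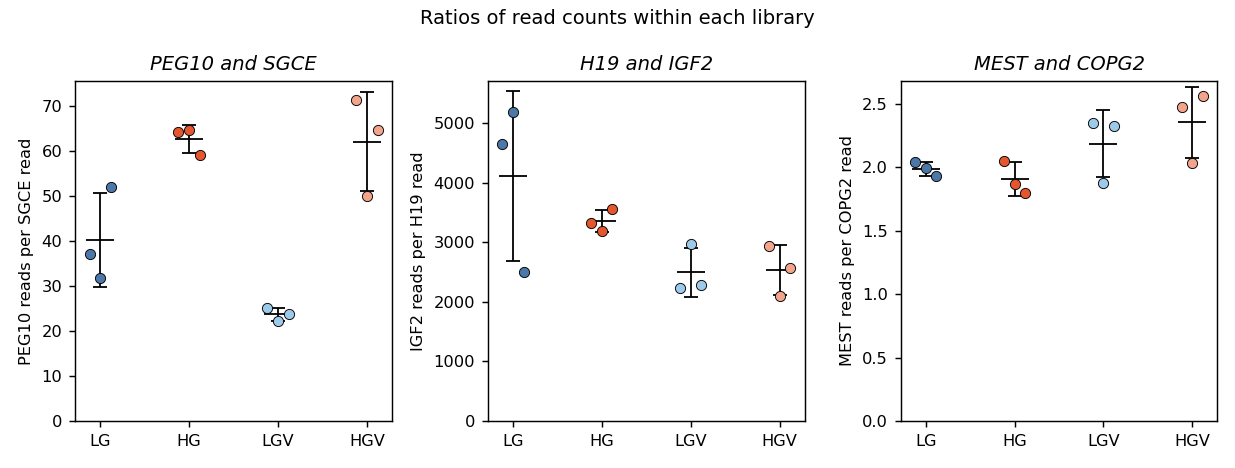
Ratios of raw read counts of neighbouring imprinted genes within each library (points), with the mean and SD of 3 libraries per group (lines), on axes that start at 0. The PEG10 to SGCE ratio was 22.1 to 25.1 in LGV and 50.04 to 71.4 in HGV, while the MEST to COPG2 ratio stayed between 1.79 and 2.56.

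KCNQ1OT1 is a paternally expressed RNA (GRCh37 chr11:2618538-2721233, minus strand) transcribed antisense within KCNQ1, and it represses neighbouring genes in cis. It was counted at 55.5, 82.5 and 73.8 CPM in LG, 95.1, 86.1 and 49.8 CPM in HG, 83.7, 55.6 and 62.8 CPM in LGV and 100.2, 65.2 and 70.8 CPM in HGV. All 4 groups overlapped, the log2 fold changes ran from -0.06 to 0.21, and none of the 4 passed the threshold (the lowest edgeR FDR was 0.336). The annotation gives it 92625 bases of exon on the minus strand. Whether the counting used strand is not stated, so reads from KCNQ1 on the opposite strand cannot be told apart from its own with certainty. It was the member with no call in any comparison.

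PHLDA2, a maternally expressed growth-restraining gene of the same domain, moved with glucose. It was counted at 9.09, 7.24 and 5.44 CPM in LG and 2.19, 2.51 and 2.94 CPM in HG, with no overlap, and fell by 1.48 on the log2 scale (SE 0.23, edgeR FDR = 0.000151). In VPA-treated cells, where LGV had 8.85, 12.0 and 9.82 CPM and HGV 4.60, 4.87 and 4.32 CPM, it fell by 1.17 (SE 0.17, edgeR FDR = 5.66e-05). With VPA it rose by 0.85 in high glucose (SE 0.18, edgeR FDR = 0.00178), and its log2 fold change in low glucose was 0.51 (SE 0.20, edgeR FDR = 0.0568). That value passed with library size alone (FDR = 0.0199), DESeq2 (adjusted p = 0.0412), a replicate block (FDR = 0.0329), a fit of the 12 libraries (FDR = 0.0387) and without LG replicate 1 (FDR = 0.0313) or LGV replicate 1 (FDR = 0.0439). SLC22A18, an organic cation transporter of the domain, had group means of 12.3 to 15.7 CPM. In HGV against HG its groups did not overlap and its log2 fold change was 0.35 (SE 0.14, edgeR FDR = 0.0563), with calls under library size alone (FDR = 0.02004), a filter of 1 CPM (FDR = 0.0488), a replicate block (FDR = 0.0411) and without HGV replicate 2 (FDR = 0.00950). The other comparisons gave it no call. KCNQ1 and CDKN1C were not analysed here.

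PEG10 and SGCE are paternally expressed from adjoining promoters in opposite directions on chromosome 7 (GRCh37 chr7:94285637-94299007, plus strand, for PEG10), and their annotated exons share 219 bases on opposite strands. PEG10 derives from the gag and pol genes of a retrotransposon and is required for placental development. SGCE encodes epsilon-sarcoglycan, a membrane protein of the dystrophin-associated complex.

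PEG10 was counted at 1270, 1261 and 1959 CPM in LG, 2445, 2001 and 1967 CPM in HG, 576, 602 and 671 CPM in LGV and 1341, 974 and 1387 CPM in HGV. The LGV libraries were below all others, and LG replicate 3 lay only just below the lowest HG library. With VPA, PEG10 fell by 1.27 on the log2 scale in low glucose (SE 0.17, edgeR FDR = 3.79e-05) and by 0.79 in high glucose (SE 0.15, edgeR FDR = 0.000897). With glucose it rose by 0.98 in VPA-treated cells (SE 0.15, edgeR FDR = 8.74e-05) and by 0.53 in untreated cells (SE 0.16, edgeR FDR = 0.0187). The last call was lost without LG replicate 1 (FDR = 0.118), LG replicate 2 (FDR = 0.0763) or HG replicate 1 (FDR = 0.114), whereas the other 3 held under every alternative.

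SGCE passed the threshold in 3 of the 4 comparisons. Its levels were 34.3, 39.8 and 37.7 CPM in LG, 38.1, 31.0 and 33.3 CPM in HG, 23.0, 27.2 and 28.2 CPM in LGV and 18.8, 19.5 and 21.4 CPM in HGV. The untreated groups overlapped, all VPA libraries were below all untreated ones, and HGV was the lowest group. SGCE fell with VPA by 0.78 on the log2 scale in high glucose (SE 0.12, edgeR FDR = 0.000185) and by 0.50 in low glucose (SE 0.13, edgeR FDR = 0.00575), and both calls held under every alternative. Its log2 fold change was -0.11 in HG against LG (SE 0.14, edgeR FDR = 0.594). In HGV against LGV it fell by 0.41 (SE 0.13, edgeR FDR = 0.0168), opposite in sign to PEG10, and this call was lost with scaling by library size alone (FDR = 0.0594) and without LGV replicate 2 (FDR = 0.0654), LGV replicate 3 (FDR = 0.105) or HGV replicate 1 (FDR = 0.0728).

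For the adjoining pair there were 37.002, 31.7 and 51.9 PEG10 reads per SGCE read in LG, 64.2, 64.6 and 59.1 in HG, 25.1, 22.1 and 23.8 in LGV and 71.4, 50.04 and 64.7 in HGV. Each library of a 20 mM group exceeded each LGV library, HG exceeded LG without overlap, and HGV overlapped LG.

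CASD1, a sialic acid acetyltransferase gene next to SGCE, fell with VPA by 1.45 on the log2 scale in high glucose (SE 0.15, edgeR FDR = 6.28e-06) and by 1.15 in low glucose (SE 0.14, edgeR FDR = 1.59e-05). Its levels were 35.3 to 51.1 CPM in HG and 14.3 to 17.0 CPM in HGV, and 27.5 to 35.6 CPM in LG and 12.9 to 14.6 CPM in LGV. With glucose it rose by 0.45 in untreated cells (SE 0.15, edgeR FDR = 0.0393), a call lost without LG replicate 1 (FDR = 0.159), HG replicate 1 (FDR = 0.178) or HG replicate 3 (FDR = 0.0711), and its log2 fold change in HGV against LGV was 0.12 (SE 0.14, edgeR FDR = 0.524). PPP1R9A, which encodes the actin-binding neurabin, fell by 0.95 in HGV against HG (SE 0.21, edgeR FDR = 0.00259) and by 0.79 in HGV against LGV (SE 0.17, edgeR FDR = 0.00120). Its log2 fold change was -0.13 in HG against LG and -0.31 in LGV against LG, neither past the threshold, although the second passed without LG replicate 3 (FDR = 0.0436).

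MEST (GRCh37 chr7:130126012-130146306, plus strand) is a paternally expressed gene for a hydrolase-fold protein of the endoplasmic reticulum. Its levels were 31.0, 31.0 and 33.0 CPM in LG, 39.1, 35.3 and 36.0 CPM in HG, 21.6, 20.4 and 21.1 CPM in LGV and 28.4, 28.5 and 27.9 CPM in HGV. None of the 4 groups overlapped another, and the order from low to high was LGV, HGV, LG and HG. MEST fell with VPA by 0.58 on the log2 scale in low glucose (SE 0.12, edgeR FDR = 0.00146) and by 0.38 in high glucose (SE 0.10, edgeR FDR = 0.00900), the second of which was lost with scaling by library size alone (FDR = 0.0523). With glucose it rose by 0.41 in VPA-treated cells (SE 0.12, edgeR FDR = 0.0107), a call lost without LGV replicate 2 (FDR = 0.0519) or LGV replicate 3 (FDR = 0.0537). In HG against LG its log2 fold change was 0.24 (SE 0.13, edgeR FDR = 0.189), although those groups did not overlap either. It was 1 of 4 members with non-overlapping groups in that comparison.

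COPG2, a coatomer subunit gene that runs towards MEST on the opposite strand and shares 228 exon bases with it, also fell with VPA, by 0.67 on the log2 scale in high glucose (SE 0.13, edgeR FDR = 0.00102) and by 0.71 in low glucose (SE 0.15, edgeR FDR = 0.00191). MESTIT1 and another long non-coding RNA, also opposite to MEST, share 484 and 602 exon bases with it, and neither was among the rows. Whether the counting used strand is not stated, so the reads of the shared bases cannot be assigned with certainty. The ratio of MEST to COPG2 reads was 1.93 to 2.04 in LG, 1.79 to 2.05 in HG, 1.88 to 2.35 in LGV and 2.04 to 2.56 in HGV, and every pair of groups overlapped. CPA4, a carboxypeptidase gene beside them, had group means of 0.571 to 0.819 CPM and passed no threshold.

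GRB10 (GRCh37 chr7:50657760-50861159, minus strand) encodes an adaptor that binds the insulin and insulin-like growth factor receptors and inhibits their signalling. It was counted at 59.1, 62.7 and 46.7 CPM in LG, 39.5, 42.4 and 42.4 CPM in HG, 40.3, 44.5 and 42.6 CPM in LGV and 34.3, 31.7 and 24.9 CPM in HGV. LG was above and HGV below every other library, and HG and LGV overlapped. GRB10 was the only member called lower in all 4 comparisons. It fell by 0.42 on the log2 scale with glucose (SE 0.14, edgeR FDR = 0.0333), and in VPA-treated cells by 0.51 (SE 0.13, edgeR FDR = 0.00543). With VPA it fell by 0.39 in low glucose (SE 0.13, edgeR FDR = 0.0237) and by 0.45 in high glucose (SE 0.13, edgeR FDR = 0.0117).

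Of the 4 GRB10 calls, only that of HGV against LGV held under every alternative. That of HG against LG was lost without LG replicate 1 (FDR = 0.136), LG replicate 2 (FDR = 0.133), HG replicate 1 (FDR = 0.101), HG replicate 2 (FDR = 0.0639) or HG replicate 3 (FDR = 0.127), and with scaling by library size alone (FDR = 0.0857). That of LGV against LG was lost without LG replicate 1 (FDR = 0.0781), LG replicate 2 (FDR = 0.0670), LGV replicate 1 (FDR = 0.0772) or LGV replicate 3 (FDR = 0.0893), and with library size alone (FDR = 0.134). That of HGV against HG was lost without HGV replicate 3 (FDR = 0.0510) and with library size alone (FDR = 0.0501). The direction stayed negative throughout.

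Of the neighbours of GRB10, DDC, the aromatic amino acid decarboxylase gene, fell by 0.65 on the log2 scale with VPA in low glucose (SE 0.17, edgeR FDR = 0.00648), a call lost with library size alone (FDR = 0.0612), and rose by 0.50 in HGV against LGV (SE 0.13, edgeR FDR = 0.00472), a call lost without LGV replicate 3 (FDR = 0.0521). COBL, an actin nucleator gene, rose with VPA by 0.43 in high glucose (SE 0.10, edgeR FDR = 0.00312) and by 0.61 in low glucose (SE 0.13, edgeR FDR = 0.00197). In HG against LG, DDC had a log2 fold change of -0.04 and COBL of -0.03. In HGV against LGV that of COBL was -0.24 (SE 0.12, edgeR FDR = 0.122), which passed without LGV replicate 1 (FDR = 0.0462).

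DLK1 (GRCh37 chr14:101192042-101204561, plus strand) encodes a transmembrane ligand-like protein of the NOTCH family that marks hepatoblasts and inhibits adipocyte differentiation, and it is expressed from the paternal copy of the domain that carries MEG3 on the maternal copy. Counts gave DLK1 460, 387 and 443 CPM in LG, 404, 496 and 505 CPM in HG, 285, 340 and 328 CPM in LGV and 401, 415 and 413 CPM in HGV. LGV was below every other library, and the other 3 groups overlapped. DLK1 fell with VPA by 0.43 on the log2 scale in low glucose (SE 0.13, edgeR FDR = 0.0135) and had a log2 fold change of -0.19 in high glucose (SE 0.11, edgeR FDR = 0.177). It rose with glucose by 0.35 in VPA-treated cells (SE 0.13, edgeR FDR = 0.0327) and had a log2 fold change of 0.15 in untreated cells (SE 0.13, edgeR FDR = 0.426). The call in LGV against LG was lost without LG replicate 1 (FDR = 0.0594), LGV replicate 1 (FDR = 0.0566) or LGV replicate 3 (FDR = 0.0502) and with library size alone (FDR = 0.0544). That in HGV against LGV was lost without LGV replicate 1 (FDR = 0.0781), LGV replicate 3 (FDR = 0.101), HGV replicate 1 (FDR = 0.0609) or HGV replicate 3 (FDR = 0.0827), while a call appeared in HGV against HG without HG replicate 1 (FDR = 0.0375).

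PEG3 encodes a large zinc finger protein and is expressed from the paternal copy on chromosome 19. PEG3 was at 639, 698 and 814 CPM in LG, 975, 651 and 687 CPM in HG, 518, 484 and 536 CPM in LGV and 570, 357 and 635 CPM in HGV. Untreated groups overlapped each other, and so did the VPA groups, whereas in each medium the VPA libraries were below the untreated ones. PEG3 fell with VPA by 0.57 on the log2 scale in high glucose (SE 0.20, edgeR FDR = 0.0375) and by 0.47 in low glucose (SE 0.13, edgeR FDR = 0.00938). With glucose its log2 fold change was 0.12 in untreated and 0.01 in VPA-treated cells, and neither passed the threshold. The call in high glucose was lost without HG replicate 1 (FDR = 0.1404), HGV replicate 1 (FDR = 0.0565) or HGV replicate 2 (FDR = 0.0683) and with library size alone (FDR = 0.115), and that in low glucose with library size alone (FDR = 0.0662).

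ZIM2 shares 1264 exon bases with PEG3 on the same strand in the annotation, and reads of the shared exons cannot be divided between them with certainty. A long non-coding RNA on the opposite strand, not among the rows, shares 3824 exon bases with PEG3, and its reads are uncertain without strand. ZIM2 was low, with group means of 0.504 to 0.979 CPM. In HGV against HG its log2 fold change was 0.96 (SE 0.38, edgeR FDR = 0.0574), and it was called with library size alone (FDR = 0.0386), with a replicate block (FDR = 0.0222), in a fit of the 12 libraries (FDR = 0.0338) and without HG replicate 1 (FDR = 0.0146) or HGV replicate 2 (FDR = 0.0296). ZNF264, another zinc finger gene of the cluster, had group means of 8.58 to 12.4 CPM. Its log2 fold change in HGV against HG, where the groups did not overlap, was -0.54 (SE 0.22, edgeR FDR = 0.0585), with calls under DESeq2 size factors (FDR = 0.0355), DESeq2 (adjusted p = 0.0166), a replicate block (FDR = 0.00253), a fit of the 12 libraries (FDR = 0.0301) and without HGV replicate 1 (FDR = 0.0163). In HGV against LGV it was -0.40 (SE 0.20, edgeR FDR = 0.126), with calls under a replicate block (FDR = 0.0385) and without HGV replicate 1 (FDR = 0.0365). Neither gene passed the threshold in the other comparisons.

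PLAGL1 (also ZAC1) encodes a zinc finger transcription factor that restrains cell cycling, and its overexpression is linked to transient neonatal diabetes. PLAGL1 stood at 0.710, 1.37 and 1.07 CPM in LG, 0.888, 1.14 and 1.12 CPM in HG, 2.49, 3.22 and 1.87 CPM in LGV and 3.07, 1.74 and 2.71 CPM in HGV. Every VPA library was above every untreated library. PLAGL1 was the only one of the 9 genes called higher with VPA. It rose by 1.24 on the log2 scale in high glucose (SE 0.26, edgeR FDR = 0.00188) and also by 1.24 in low glucose (SE 0.30, edgeR FDR = 0.00418). Both calls held under every alternative. With glucose its log2 fold change was -0.004 in untreated cells (SE 0.30, edgeR FDR = 0.993) and -0.03 in VPA-treated cells (SE 0.26, edgeR FDR = 0.935). The values rest on 19 to 100 reads per library. PHACTR2, its neighbour that encodes an actin regulator, had group means of 21.8 to 28.4 CPM. Its log2 fold change was 0.38 in HGV against HG (SE 0.16, edgeR FDR = 0.0640) and 0.24 in LGV against LG (SE 0.14, edgeR FDR = 0.199). The first was called with library size alone (FDR = 0.0254), a replicate block (FDR = 0.0112) and without HG replicate 1 (FDR = 0.0294) or HGV replicate 2 (FDR = 0.00517), the second with library size alone (FDR = 0.0373) and without LG replicate 2 (FDR = 0.0243).

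Both media gave the same direction for most of these genes. With VPA, 5 of the 9 genes (GRB10, MEST, PEG10, PEG3 and SGCE) fell in both media and 1 (PLAGL1) rose in both, none being called in opposite directions, while among the 15743 genes tested in both comparisons 14.8% fell in both and 17.5% rose in both. With glucose, H19 and PEG10 rose and GRB10 fell both without and with VPA, against 8.85% and 9.90% of 15271 genes. A glucose by VPA interaction term, fitted to all 12 libraries, asked if the difference with VPA differed between the media. None of the 9 genes passed the threshold, none had an unadjusted p under 0.05, and DESeq2 also called 0. Of all genes tested, edgeR called 0.0427%. The largest interaction was that of PEG10, a log2 difference of 0.49 (SE 0.24, unadjusted p = 0.0518, edgeR FDR = 0.442). An absent call does not show that the responses were equal.

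**Figure D4:**
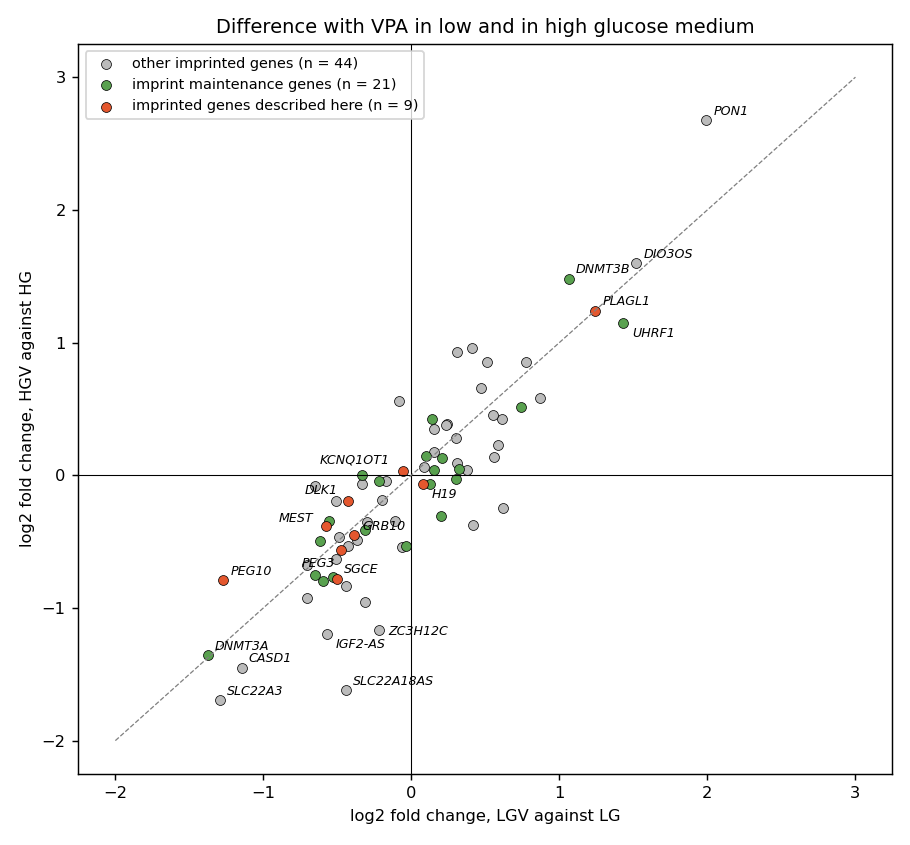
Log2 fold change with VPA in low glucose (horizontal) and in high glucose (vertical) for the 9 imprinted genes, 44 other genes listed as imprinted and 21 imprint maintenance genes, with the line of equal change dashed. PLAGL1, PON1, DIO3OS, DNMT3B and UHRF1 lie at the upper right, and PEG10, CASD1, SLC22A3 and DNMT3A at the lower left.

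Of 79 further genes listed as imprinted, 44 were counted, and whether they are imprinted in these cells was not examined. In HG against LG, 5 rose and 6 fell of 43 tested, with a median log2 fold change of -0.02. That is 25.6% of those tested, against 24.7% of all genes. The 11 calls became 5 without LG replicate 1, 7 without LG replicate 2, 13 without LG replicate 3, 5 without HG replicate 1, 7 without HG replicate 2, 6 without HG replicate 3 and 5 with a replicate block. Those with the largest changes in this comparison were PHLDA2 and IGF2, given above, IGF2-AS, which rose by 1.18 on the log2 scale (SE 0.22, edgeR FDR = 0.000819), HM13, a signal peptide peptidase gene, which fell by 1.11 (SE 0.15, edgeR FDR = 5.13e-05), and IGF2R, the receptor that clears IGF2, which fell by 0.60 (SE 0.13, edgeR FDR = 0.00308). In HGV against LGV, 7 rose and 13 fell of 44, with a median of -0.11, which is 45.5% called against 40.7% of all genes. Beside IGF2 and PHLDA2, the leading ones were SLC22A18AS, which fell by 1.47 (SE 0.40, edgeR FDR = 0.00757), DIO3OS, which rose by 1.21 (SE 0.33, edgeR FDR = 0.00671), and NNAT, the proteolipid neuronatin gene, which fell by 1.09 (SE 0.32, edgeR FDR = 0.0106). SLC22A18AS, DIO3OS and NNAT were low, with means of 0.244, 1.20 and 0.880 CPM in HGV and 0.679, 0.515 and 1.83 CPM in LGV. IGF2-AS and SLC22A18AS are antisense to counted genes, so that their reads are uncertain without strand.

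With VPA, 9 of the 44 rose and 14 fell in HGV against HG, and 6 rose and 9 fell in LGV against LG, with medians of -0.06 and 0.01, close to that of all genes. The shares called were 52.3% and 34.1% of the list, against 46.1% and 41.6% of all genes. PON1, the paraoxonase of high-density lipoprotein, rose by 2.68 on the log2 scale in high glucose (SE 0.30, edgeR FDR = 1.69e-05) and by 1.99 in low glucose (SE 0.38, edgeR FDR = 0.000675). PON1 was low without VPA, at 4 to 27 reads per library in LG and 12 to 17 in HG. Its means with VPA were 1.82 CPM in LGV and 2.94 CPM in HGV. DIO3OS, a non-coding RNA at the far end of the DLK1 domain, rose by 1.60 in high glucose (SE 0.32, edgeR FDR = 0.00133) and by 1.52 in low glucose (SE 0.51, edgeR FDR = 0.0281). It was at most 1.40 CPM, and in low glucose its call was lost with DESeq2 (adjusted p = 0.0706) and without LG replicate 1 (FDR = 0.0972), LG replicate 3 (FDR = 0.102), LGV replicate 2 (FDR = 0.0836) or LGV replicate 3 (FDR = 0.0647). SLC22A3, an organic cation transporter gene, fell by 1.70 (SE 0.13, edgeR FDR = 5.22e-07) and by 1.30 (SE 0.13, edgeR FDR = 2.20e-06). SLC22A18AS fell by 1.62 in high glucose (SE 0.34, edgeR FDR = 0.00207), and ZDBF2 rose by 0.87 in low glucose (SE 0.22, edgeR FDR = 0.00538). SLC22A18AS had only 24 to 28 reads per library in HG and 6 to 13 in HGV. In the interaction 0 of the 44 were called by edgeR and 0 by DESeq2, with 5 at an unadjusted p under 0.05, and edgeR called 2 without LG replicate 2.

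Of 26 genes listed for the upkeep of imprints, which include TET1, TET2 and TET3 for demethylation, 21 were counted, and ZFP57 itself was not among the rows. In HG against LG, 5 rose and 2 fell, which is 33.3% of the list against 24.7% of all genes. UHRF1, which guides DNMT1 to replicating DNA, rose by 1.12 on the log2 scale (SE 0.22, edgeR FDR = 0.00134), the de novo methyltransferase gene DNMT3B by 0.98 (SE 0.22, edgeR FDR = 0.00413), the demethylation enzyme gene TET1 by 0.94 (SE 0.21, edgeR FDR = 0.00339) and the heterochromatin protein gene CBX5 by 0.66 (SE 0.13, edgeR FDR = 0.00112), whereas TET3 fell by 0.66 (SE 0.13, edgeR FDR = 0.00174). In HGV against LGV, 6 rose and 3 fell, which is 42.9% of the list against 40.7% of all genes. They were led by DNMT3B, which rose by 1.37 (SE 0.15, edgeR FDR = 4.00e-06), and CBX5, which rose by 0.96 (SE 0.12, edgeR FDR = 1.41e-05). TET3 fell there by 0.93 (SE 0.18, edgeR FDR = 0.000622), UHRF1 rose by 0.81 (SE 0.17, edgeR FDR = 0.00113) and EZH2, the histone H3 methyltransferase of Polycomb, fell by 0.69 (SE 0.13, edgeR FDR = 0.000599).

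With VPA, 4 of the 21 rose and 7 fell in HGV against HG, and 3 rose and 7 fell in LGV against LG, where 46.1% and 41.6% of all genes were called. The 7 that fell were the same genes in both media: CTCF, DNMT3A, EHMT1, EHMT2, SETDB1, TET3 and TRIM28. They are 33.3% of the list, and 14.8% of all genes fell in both media. DNMT3A fell by 1.36 on the log2 scale in high glucose (SE 0.10, edgeR FDR = 4.60e-07) and by 1.38 in low glucose (SE 0.18, edgeR FDR = 2.24e-05). DNMT3B and UHRF1 moved the opposite way, DNMT3B by 1.48 (SE 0.12, edgeR FDR = 1.30e-06) and 1.06 (SE 0.25, edgeR FDR = 0.00318), UHRF1 by 1.15 (SE 0.15, edgeR FDR = 4.01e-05) and 1.43 (SE 0.24, edgeR FDR = 0.000288). The insulator protein gene CTCF fell by 0.80 (SE 0.10, edgeR FDR = 3.03e-05) and TET3 by 0.77 (SE 0.20, edgeR FDR = 0.00729) in high glucose. In low glucose EZH2 rose by 0.74 (SE 0.15, edgeR FDR = 0.000874) and SETDB1 fell by 0.65 (SE 0.12, edgeR FDR = 0.000455). In the interaction 0 of the 21 were called by edgeR and 0 by DESeq2, and 0 had an unadjusted p under 0.05.

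Among 11907 genes that averaged 1 log2 CPM or more, those whose log2 CPM followed each of the 8 members with a call most closely over the 12 libraries were sought as a description, and KCNQ1OT1 was not searched. H19 and PLAGL1 averaged less than that and were no candidates. The libraries share their groups, so these values mostly reflect group means. KNSTRN followed H19 (Pearson r = 0.986), FZD4 followed PEG10 (r = 0.977), CUL4A followed SGCE (r = 0.984), RCC2 followed GRB10 (r = 0.988) and C1orf123 followed MEST (r = 0.983), each followed in turn by ALDH3B1 (r = 0.978), ENC1 (r = 0.975), CAPRIN1 (r = 0.983), KDM4A (r = 0.978) and EHHADH (r = 0.981). For PEG3 they were TAF1 (r = 0.969) and ZBTB37 (r = 0.967), for DLK1 PPP2R3B (r = 0.959) and GAA (r = 0.952), and for PLAGL1 RP11-469M7.1 (r = 0.936) and FRMD6 (r = 0.936).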

How the data were processed

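The 12 libraries were made from HepG2 cells, with 3 in each of the groups LG, HG, LGV and HGV. Per the study's methods, 50 nt single-end reads of poly(A) RNA prepared with a directional kit were aligned with STAR to GRCh37 and counted with featureCounts. The authors deposited raw counts per gene, without normalization, after leaving out those whose average was below 10 reads a sample. Tool names stand in the submitters' processing notes, and whether strand was used in counting is not given in the sources used here. The labels give no batch.

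The tests used edgeR 4.0.16 under R 4.3.3 (TMM factors, quasi-likelihood F test). A mean count of 10 or more over the libraries compared was required, and FDR is the Benjamini-Hochberg adjusted p over all genes tested, with calls at 0.05 or less. CPM values are TMM-scaled. Levels per kb used exon unions of a GENCODE annotation on GRCh37, which matched 97.5% of the genes and is not the annotation the authors counted with. In simulated data with 2-fold changes, 85.2 to 88.8% of changed genes were recovered in the pairwise comparisons and 55.6% in the interaction. The simulation gave every gene the same dispersion. Most changes of the members were smaller than 2-fold, so these shares do not give the power for them. Alternatives were DESeq2 1.42.0, other scalings and filters, a replicate block, a fit of the 12 libraries together and leaving out each library. Members and lists were chosen with earlier results of these data known. All members, and their listed domain partners among the rows, were named, and of the other lists up to 5 called genes per comparison with the largest change. RTL1, MEG8, TFPI2, MESTIT1, HYMAI and USP29 were listed as partners but were not among the rows.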

Additional observations from a re-analysis of the deposited data

How the results depend on the processing

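Of the 22 calls of members, 11 held under every alternative at an FDR of 0.05, and no called member changed sign; of 52 calls of other named genes, 46 held. Scaling by library size alone raised the median log2 fold change of all genes from 0.01 to 0.11 (HG vs LG), 0.02 to 0.15 (HGV vs HG), -0.01 to 0.16 (LGV vs LG) and 0.01 to 0.10 (HGV vs LGV), and its calls were 2172 up and 1297 down (1854 and 1959 with TMM), 5182 and 2424 (4184 and 3272), 4500 and 1956 (3461 and 3177) and 3761 and 2309 (3444 and 3160). Members called fell to 3 in HGV vs HG and 4 in LGV vs LG under it, losing GRB10 and PEG3 in both, MEST in the first and DLK1 in the second. At an FDR of 0.01, HG vs LG had 1852 genes and 1 member called, and HGV vs LGV 4263 genes and 3 members. The 7 interaction calls over all genes became 1 at an FDR of 0.01, 1 with library size alone, 162 with the DESeq2 Wald test and 13 with a replicate block. The cause of these differences was not tested.

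Log2 values near 0 that passed no threshold changed sign. With library size alone these were, in HG vs LG, PLAGL1 0.095, SLC22A18 0.056, DDC 0.053, COBL 0.073 and PHACTR2 0.100, in HGV vs HG H19 0.056 and DDC 0.036, in LGV vs LG KCNQ1OT1 0.116, CPA4 0.086 and ZNF264 0.093, in HGV vs LGV PLAGL1 0.064, and in the interaction PLAGL1 -0.030. In HG vs LG, PLAGL1 was 0.014 and PHACTR2 0.017 with no filter, and 0.011 and 0.012 in a fit of the 12 libraries. DESeq2 size factors and the Wald test gave -0.0045 and -0.0044 for KCNQ1OT1 in HGV vs HG, -0.0081 and -0.0080 for PEG3 in HGV vs LGV, and -0.017 and -0.020 for PLAGL1 in the interaction, where a filter of 1 CPM in 3 libraries gave -0.018.

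Deviations of same-numbered libraries correlated at -0.188 to 0.256 over the 4 comparisons, and those of differently numbered libraries at -0.349 to 0.380. Same-numbered libraries averaged -0.056 (HG vs LG), 0.078 (HGV vs HG), 0.015 (LGV vs LG) and 0.077 (HGV vs LGV). The differently numbered ones averaged 0.028, -0.041, -0.008 and -0.038 in the same order. These few values cannot decide whether replicate numbers pair the libraries. With the number as a replicate block, GRB10 in HG vs LG lost its call (FDR = 0.0706), as did CASD1 (FDR = 0.0608), while no other member call was lost or gained. The block gave calls to SLC22A18 (FDR = 0.0411), PHACTR2 (FDR = 0.0112), ZIM2 (FDR = 0.0222) and ZNF264 (FDR = 0.00253) in HGV vs HG, PHLDA2 in LGV vs LG (FDR = 0.0329) and ZNF264 in HGV vs LGV (FDR = 0.0385), and it lowered the calls among the other imprinted genes in HG vs LG from 11 to 5, as did an FDR of 0.01. Log2 values of 0.037 (PLAGL1) and 0.0013 (PHACTR2) in HG vs LG and -0.035 (PEG3) and -0.048 (CPA4) in HGV vs LGV changed sign.

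Leaving out 1 library moved the calls in HG vs LG from 1933 to 5338 genes and from 1 to 3 members (1 without LG replicate 1, LG replicate 2 or HG replicate 1), the members in HGV vs LGV from 3 (without LGV replicate 3) to 6, and the interaction from 1 to 217 genes. Ranges that crossed 0, all of values past no threshold, were in HG vs LG -0.063 to 0.237 (PEG3), -0.179 to 0.253 (PLAGL1), -0.016 to 0.413 (KCNQ1OT1), -0.114 to 0.070 (SLC22A18), -0.203 to 0.081 (DDC), -0.127 to 0.069 (COBL) and -0.114 to 0.177 (PHACTR2). In HGV vs HG they were -0.146 to 0.050 (H19), -0.205 to 0.185 (KCNQ1OT1) and -0.280 to 0.895 (CPA4), and in LGV vs LG -0.192 to 0.551 (H19), -0.233 to 0.065 (KCNQ1OT1), -0.424 to 0.264 (CPA4) and -0.110 to 0.032 (ZNF264). In HGV vs LGV they were -0.161 to 0.218 (PEG3), -0.215 to 0.185 (PLAGL1), -0.0033 to 0.393 (KCNQ1OT1), -0.709 to 0.463 (CPA4), -0.0042 to 0.262 (PHACTR2) and -0.219 to 0.255 (ZIM2), and in the interaction -0.589 to 0.107 (H19), -0.250 to 0.092 (PEG3), -0.173 to 0.074 (GRB10), -0.257 to 0.189 (PLAGL1) and -0.165 to 0.286 (KCNQ1OT1). The 23 to 92 reads of H19 and 19 to 100 of PLAGL1 limit what could be detected for them.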
